A study of Mus musculus with 13 samples.

Results

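Of the regions with a peak in these B cells, STAT3 knockout cells included, 1 in 5 lay far from every protein-coding gene, and few of those were found again in another library. Overlapping peaks of 12 deposited lists (1 bp or more) gave 11227 regions. The 2219 regions (19.8%) whose best summit lay more than 50 kb from every protein-coding gene span of RefSeq on GRCm38.p6, the assembly of mm10, are called remote regions here. STAT3 was mapped by CUT&RUN, in which a nuclease tethered to an antibody, here clone 124H6 against STAT3, cuts chromatin and the freed fragments are sequenced. Mouse splenic naive B cells were activated for 96 h with anti-CD40 at 1 µg/mL and IL-4 at 12.5 ng/mL, and IgM+ and IgG1+ cells were sorted from them. For the last 1 h, 400000 cells per library were given anti-CD40 together with IL-21 at 10 ng/mL, or with IL-4 at its earlier dose. All cells had therefore seen anti-CD40 and IL-4. The groups compared were wild-type (WT) IgM+ and IgG1+ cells with either cytokine, each with 2 libraries, and STAT3 knockout (KO) cells of the same 4 kinds, each with 1 library. The IL-21 arm had no IL-4 in the last hour, so that the presence of IL-21 and the lack of IL-4 cannot be told apart. The sources used here do not give how the knockout was made, the age of the mice or whether libraries came from separate mice. The p-values below therefore cover the spread between these libraries alone, and that spread may be technical. A peak list holds no expression values, so neither the B cell label nor the loss of STAT3 could be checked against marker genes.

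As background, STAT3 is a transcription factor that is phosphorylated by JAK kinases at activated cytokine receptors, forms dimers, enters the nucleus and binds DNA. IL-21, made by follicular helper T cells, acts on B cells chiefly by way of STAT3, and IL-4 chiefly by way of STAT6. Sites far from promoters can be enhancers that act on genes along the same chromosome, and long noncoding RNA (lncRNA) genes and microRNA genes often lie in the same gene-poor stretches. The nearest protein-coding gene is given below as an address, not as a target.

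No genome sequence was used here, so the sequences shown are those RefSeq gives for noncoding genes beside remote regions. MicroRNA genes lay beside the remote site of the highest fold (Mir146) and beside the cluster found in every library (Mir101c). Their mature sequences are printed 5′ to 3′ with the seed, bases 2 to 8, in capitals. The sequence of mmu-miR-146a-5p lies at chr11:43374435-43374456 on the minus strand, that of mmu-miR-146a-3p at chr11:43374399-43374420 on the minus strand, and that of mmu-miR-101c at chr9:3038680-3038698 on the minus strand. The 3 seeds differ.
mmu-miR-146a-5p: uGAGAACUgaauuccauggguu
mmu-miR-146a-3p: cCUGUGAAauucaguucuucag
mmu-miR-101c: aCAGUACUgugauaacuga

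Promoter windows, 300 bases each and mostly upstream of a transcript start that RefSeq gives, are shown for the 3 lncRNA genes at which a remote region found with IL-21 in at least 2 WT libraries overlapped the window. The bases from that start onward are in capitals. For Gm32633 and Gm33370 the start lies inside the gene span of the table, and for Gm40948 it is the end of the span. The Gm32633 window lies at chr7:64001654-64001953 on the plus strand, and the summit of the region described below as the second Klf13 site falls inside it, 37 bases after the transcript start. The Gm40948 window lies at chr13:52083558-52083857 on the minus strand, and the summit of the overlapping region lies 427 bases before the start. The Gm33370 window lies at chr5:96921186-96921485 on the minus strand, and the summit there lies 404 bases before the start.
Gm32633 promoter: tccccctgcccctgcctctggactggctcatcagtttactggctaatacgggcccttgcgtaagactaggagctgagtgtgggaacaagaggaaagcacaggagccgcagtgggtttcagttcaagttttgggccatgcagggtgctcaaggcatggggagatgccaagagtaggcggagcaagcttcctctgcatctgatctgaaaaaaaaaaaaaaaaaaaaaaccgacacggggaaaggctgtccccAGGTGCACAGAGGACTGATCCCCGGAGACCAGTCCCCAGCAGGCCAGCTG
Gm40948 promoter: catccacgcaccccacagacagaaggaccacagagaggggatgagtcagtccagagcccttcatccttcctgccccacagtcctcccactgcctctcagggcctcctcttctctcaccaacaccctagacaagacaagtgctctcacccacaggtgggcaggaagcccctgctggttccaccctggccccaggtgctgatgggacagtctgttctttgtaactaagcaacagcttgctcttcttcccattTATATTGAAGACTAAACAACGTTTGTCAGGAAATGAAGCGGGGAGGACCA
Gm33370 promoter: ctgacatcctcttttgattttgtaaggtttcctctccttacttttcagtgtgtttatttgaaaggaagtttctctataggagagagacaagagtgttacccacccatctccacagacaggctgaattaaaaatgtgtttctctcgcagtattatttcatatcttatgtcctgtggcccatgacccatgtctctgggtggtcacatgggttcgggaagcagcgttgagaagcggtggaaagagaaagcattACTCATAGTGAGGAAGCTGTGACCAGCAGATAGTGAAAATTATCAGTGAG

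STAT dimers are known to prefer a palindrome, and the letters TTCNNNGAA and TTCNNNNGAA were searched in these windows on both strands, each being its own reverse complement. Neither was found in the 3 windows. Among all 32851 promoter windows of the same length, 8.30% held the first motif and 6.95% the second. In all, 4 of the remote regions found in 2 or more libraries overlapped a promoter window, and so did 6 found in a single library. The fourth window, that of D130051D11Rik, held the second motif, and its region was found in 1 WT library with each cytokine and in 1 KO library. No match means only that these letters are not in the window.

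The remote share of peaks was lower in each WT IL-21 list than in each WT IL-4 list. With IL-4, 20.3% (95% exact interval 18.2% to 22.4%) and 21.7% (19.0% to 24.6%) of the peaks were remote in the 2 IgM libraries. It was 21.8% (18.7% to 25.2%) and 32.7% (29.1% to 36.6%) in the 2 IgG1 libraries with IL-4. With IL-21 the shares were 12.98% (11.5% to 14.5%) and 15.5% (13.5% to 17.7%) in IgM cells, and 17.5% (15.0% to 20.2%) and 13.7% (12.03% to 15.6%) in IgG1 cells. The WT groups did not overlap, at 14.9% ± 2.00 (SD, n = 4) with IL-21 and 24.1% ± 5.79 (SD, n = 4) with IL-4. The difference of -9.20 percentage points had p = 0.0556 in a two-sided exact permutation test within isotype (adjusted over 3 contrasts, p = 0.167), which is the smallest p this design allows and cannot pass 0.05. In STAT3 KO cells the shares ran from 15.9% (IL-4, IgM) to 24.4% (IL-4, IgG1), with 20.5% and 22.8% in the IL-21 lists of IgM and IgG1 cells. They overlapped the WT shares. WT minus KO was -1.36 percentage points (exact permutation p = 0.642, adjusted p = 0.642, smallest possible 0.0123), and IgM minus IgG1 in WT was -3.82 points (exact permutation p = 0.222, adjusted p = 0.333).

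The number of remote peaks overlapped between the cytokines in lists as deposited. WT IL-4 lists held 295, 185, 142 and 204 remote peaks and WT IL-21 lists held 264, 182, 151 and 204. The mean log2 difference was -0.02 (two-sided exact permutation p = 0.889 within isotype). When each list was shortened to its 623 peaks of highest -log10 p, the number was lower with IL-21, with a log2 difference of -0.84 (exact permutation p = 0.0556, the smallest possible). The KO lists held 121 and 461 (IL-4, IgM and IgG1) and 220 and 148 (IL-21). The log2 number differed by 0.39 between IgM and IgG1 (exact permutation p = 0.222) and by -0.06 between WT and KO (exact permutation p = 0.877). Lists differ in length, from 623 to 2034 peaks, and the read depth behind them is unknown. Intervals of shares cover counting error only.

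**Figure D1:**
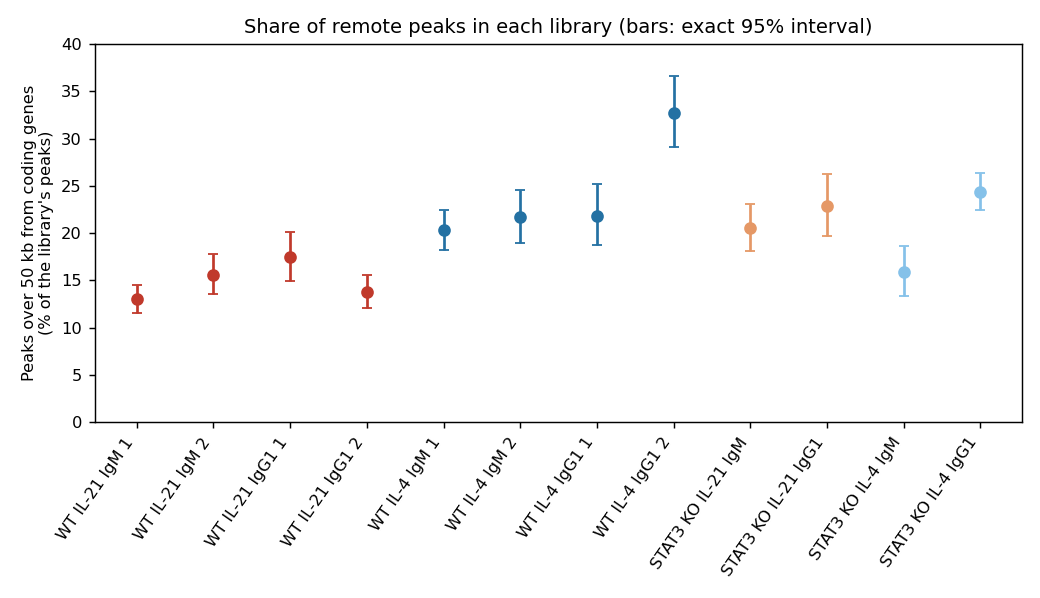
Remote share of the peaks (%, vertical axis) in each of the 12 libraries, with bars for the exact 95% interval of counting error. The 4 WT IL-21 libraries lie between 12.98% and 17.5%, the 4 WT IL-4 libraries between 20.3% and 32.7%, and the KO libraries across both ranges.

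Remote regions lay 50007 to 2254614 bp from the nearest protein-coding gene, with a median of 167397 bp. Of the 2219, 1581 (71.2%) were over 100 kb away and 355 over 500 kb. Stretches more than 50 kb from any protein-coding gene made up 37.4% of the sequence between the first and last such gene of each chromosome. Remote regions were spread over all 21 chromosomes used, from 177 on chromosome 1 to 2 on Y. Their share of a chromosome's regions ran from 10.9% on chromosome 11 to 34.6% on X. Just inside the 50 kb limit lay regions 50007 bp from Atp1b1 and 50169 bp from Olfr1408, and just outside lay regions 49982 bp from Sstr4 and 49912 bp from Spin4.

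Most remote regions were seen in a single library. Of the 2219, 2137 had a peak in 1 library, that is, 584 in WT with IL-21, 713 in WT with IL-4 and 840 in KO. The other 82 (3.70%, 95% exact interval 2.95% to 4.57%) had a peak in at least 2 libraries, against 9.33% of all regions and 7.68% of the 2682 intergenic regions 1 to 50 kb from a gene. Among the 82, 30 were found in 2 libraries, 17 in 3, 9 in 4, 3 in 5 and 3 in 6. None was found in 7 to 9, and 20 were found in 10 to 12. The distribution therefore had 2 separate ends. Of the 19 regions of the whole genome found in all 12 libraries (0.169% of all regions), 17 were remote.

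**Figure D2:**
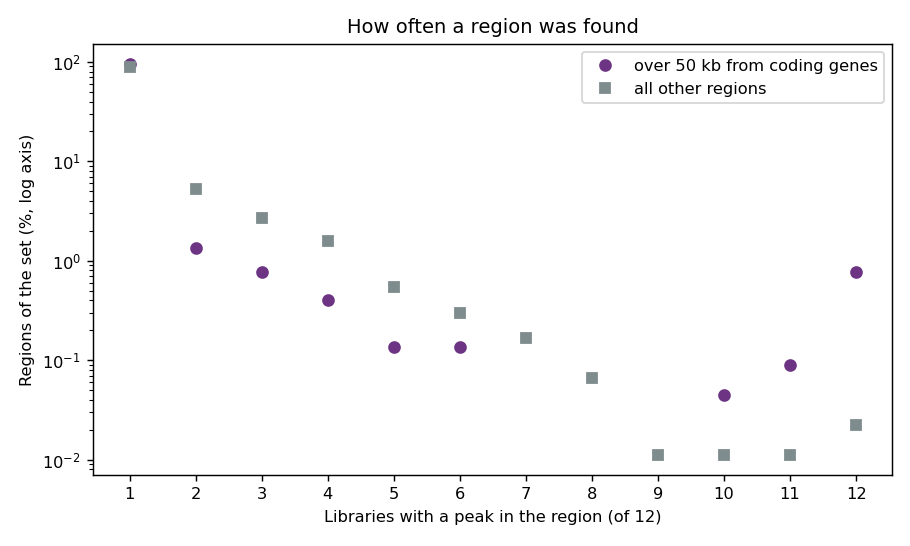
Percentage of regions (log axis) by the number of libraries, of 12, with a peak in the region, for remote regions (circles) and all others (squares); a number of libraries with 0 regions has no point. Remote regions lie below the others from 2 to 6 libraries, have none at 7 to 9, and lie above at 10 to 12, with 17 regions at 12.

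Agreement at remote peaks between the 2 WT libraries of a group came mostly from those 17 regions with IL-4, and in part with IL-21. With IL-4, 9.58% of remote peaks in IgM cells and 12.72% in IgG1 cells overlapped a peak of the other library, against 3.94% and 2.26% of other peaks. With IL-21 the remote values were 22.2% (IgM) and 19.2% (IgG1), against 26.2% and 20.5% of other peaks. Without the regions of all 12 libraries, the remote values became 1.36%, 1.31%, 15.4% and 9.46% in the same order, and the other peaks 3.73%, 1.84%, 26.1% and 20.3%. The mean difference between remote and other peaks over the 4 groups was 2.69 percentage points with them (exact sign-flip p = 0.5) and -6.13 points without them (exact sign-flip p = 0.125, the smallest that 4 groups allow). Without them, remote peaks overlapped less than other peaks in 4 of 4 groups.

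The fold enrichment of a peak is the authors' value for that peak, and it was used within each list. In the median, remote peaks had a fold of 4.18 to 4.78 across the 12 lists and other peaks 4.29 to 5.30. The log2 difference of the medians was -0.07 on average and was below 0 in 8 lists, 0 in 4 and above 0 in none (two-sided exact sign-flip p = 0.00781). In the 4 WT IL-21 lists it was -0.12 (exact sign-flip p = 0.125, the smallest possible), and in the other 8 it was -0.04 (exact sign-flip p = 0.125). Without regions that had a KO peak it was -0.08 in the 4 WT IL-21 lists (exact sign-flip p = 0.125). The remote peaks of each list included 20 to 24 in regions of 10 to 12 libraries, whose folds were low (1.22 to 5.96). Their part in the difference between remote and other peaks was not tested. The gap was wider at the upper end. A fold of at least 5 was reached by 37.5% and 19.2% of remote peaks in the IgM and by 30.5% and 31.4% in the IgG1 libraries with IL-21. The corresponding shares of other peaks were 58.1%, 33.7%, 39.5% and 48.0%, and remote peaks had the lower share in 11 of the 12 lists.

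Remote peaks with a fold of 10 or more came mostly from WT IL-21 lists, and so did other peaks of that fold. Those lists held 12, 3, 2 and 3 of them, against 163, 58, 26 and 74 among other peaks. The WT IL-4 lists held 0, 0, 0 and 3, against 4, 2, 2 and 5 among other peaks. The KO lists held 0 remote ones. Their other peaks of that fold numbered 1 (IgM) and 0 (IgG1) with IL-4, and 1 and 0 with IL-21. The highest remote fold was 28.4, 15.5, 14.1 and 24.0 in the WT IL-21 lists, each time at the Mir146 site described below. It was 6.30 to 12.9 in the WT IL-4 lists and 6.44 to 7.61 in the KO lists. Together 16 remote regions had a peak of that fold, and 12 of them were found in 2 or more libraries. The matching counts over all regions were not computed.

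**Figure D3:**
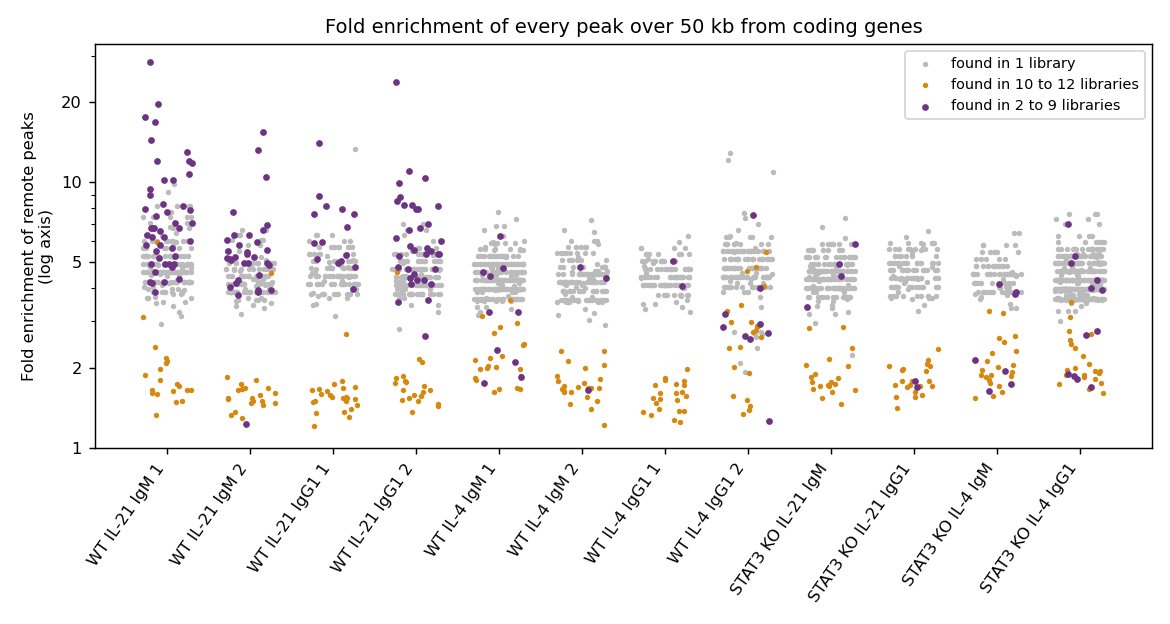
Fold enrichment of each remote peak (log axis) in each library, coloured by the number of libraries in which its region was found; sideways position within a library has no meaning. Regions of 10 to 12 libraries lie lowest, from 1.22 to 5.96, and the peaks above 13 are in WT IL-21 libraries.

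Remote sites that recurred with IL-21 only, meaning at least 2 WT IL-21 libraries and none of the other 8, numbered 36 of 2219 (1.62%, 95% exact interval 1.14% to 2.24%). The share over all regions was 4.37%, and that of the intergenic regions nearer to genes was 4.85%. The reverse pattern, 2 or more WT IL-4 libraries and no other, was found at 0 remote regions (0.0267% of all regions), and 2 or more KO libraries and no other also at 0 (0.454% of all regions). Of the 36, 5 were found in all 4 WT IL-21 libraries, 10 in 3 and 21 in 2. The 36 lay on 14 chromosomes, 51639 to 673251 bp from a protein-coding gene (median 103352 bp), and their best fold ran from 4.81 to 19.8 (median 6.71). Nearest to the 50 kb limit on the inside were sites 51639 bp from Efcab11, which encodes an EF-hand protein, and 52011 bp from Spin4, and on the outside sites 49196 bp from Uqcrfs1 and 44503 bp from Ppp1r26.

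The 4 IL-21 libraries contributed unequally to the 36. The first IgM library had 34 of them, the second IgM library 24, the first IgG1 library 10 and the second IgG1 library 24. Their lists held 2034, 1171, 865 and 1485 peaks in the same order. Of the 21 sites in 2 libraries, 10 were in both IgM libraries, 0 in both IgG1 libraries and 11 in 1 of each. With each list shortened to 623 peaks, the remote IL-21-only regions numbered 24, and the share over all regions was not computed for these lists. Without the first IgM library the count fell from 36 to 17.

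Compared within an isotype, 25 of 822 remote regions with a WT IgM peak (3.04%) were gained with IL-21, that is, had a peak in both IL-21 libraries and in neither IL-4 library, against 6.64% of all such regions. In IgG1 cells 11 of 618 (1.78%) were gained, against 5.54%. In lists shortened to 623 peaks the counts of remote regions were 18 in IgM and 10 in IgG1 cells, without a computed share over all regions. Lost remote regions, the reverse, numbered 1 in IgM cells (0.206% of all such regions) and 0 in IgG1 cells (0.0306%). In both isotypes together 5 of 1379 remote regions (0.363%, 95% exact interval 0.118% to 0.844%) were gained, against 1.31% of all regions, and 0 were lost (0% of all regions). None of the 5 had a KO peak, and the matching share among all gained regions was not computed. The rule for gained regions sets their p in Fisher's exact test on 4 against 4 libraries at its smallest value, 0.0286, so that this test adds nothing to the count. After Benjamini-Hochberg adjustment over all WT regions the smallest p was 1, and 4 against 4 libraries could not pass it (98 regions, those gained in both isotypes, had an unadjusted p under 0.05). Leaving out the second IgM library raised the count of gained remote regions from 5 to 8 and leaving out the first IgG1 library raised it to 13, since fewer libraries then had to hold a peak.

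The strongest of the 5 gained regions lay in Pvt1, a lncRNA gene downstream of Myc, which encodes a transcription factor that drives cell growth. The first site, chr15:62168940-62170339, lay within Pvt1 and 179287 bp from Myc. Its fold was 17.7 and 13.3 in the IgM and 7.94 and 11.1 in the IgG1 libraries with IL-21 (mean 12.5 ± 4.09, SD, n = 4). It had a peak in none of the WT IL-4 or KO libraries, and the same held for the next site. The second site, chr15:62181183-62181855, also within Pvt1 and 191103 bp from Myc, had folds of 12.01, 5.21, 8.18 and 8.14 in the same order (mean 8.38 ± 2.79, SD, n = 4). Another remote site assigned to Myc, chr15:61540928-61541249, lay on the other side, 444223 bp away, and was found in the 2 IgM libraries only, with folds of 6.71 and 5.53. Myc was thus the nearest coding gene of 3 remote regions of the IL-21-only set.

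**Figure D4:**
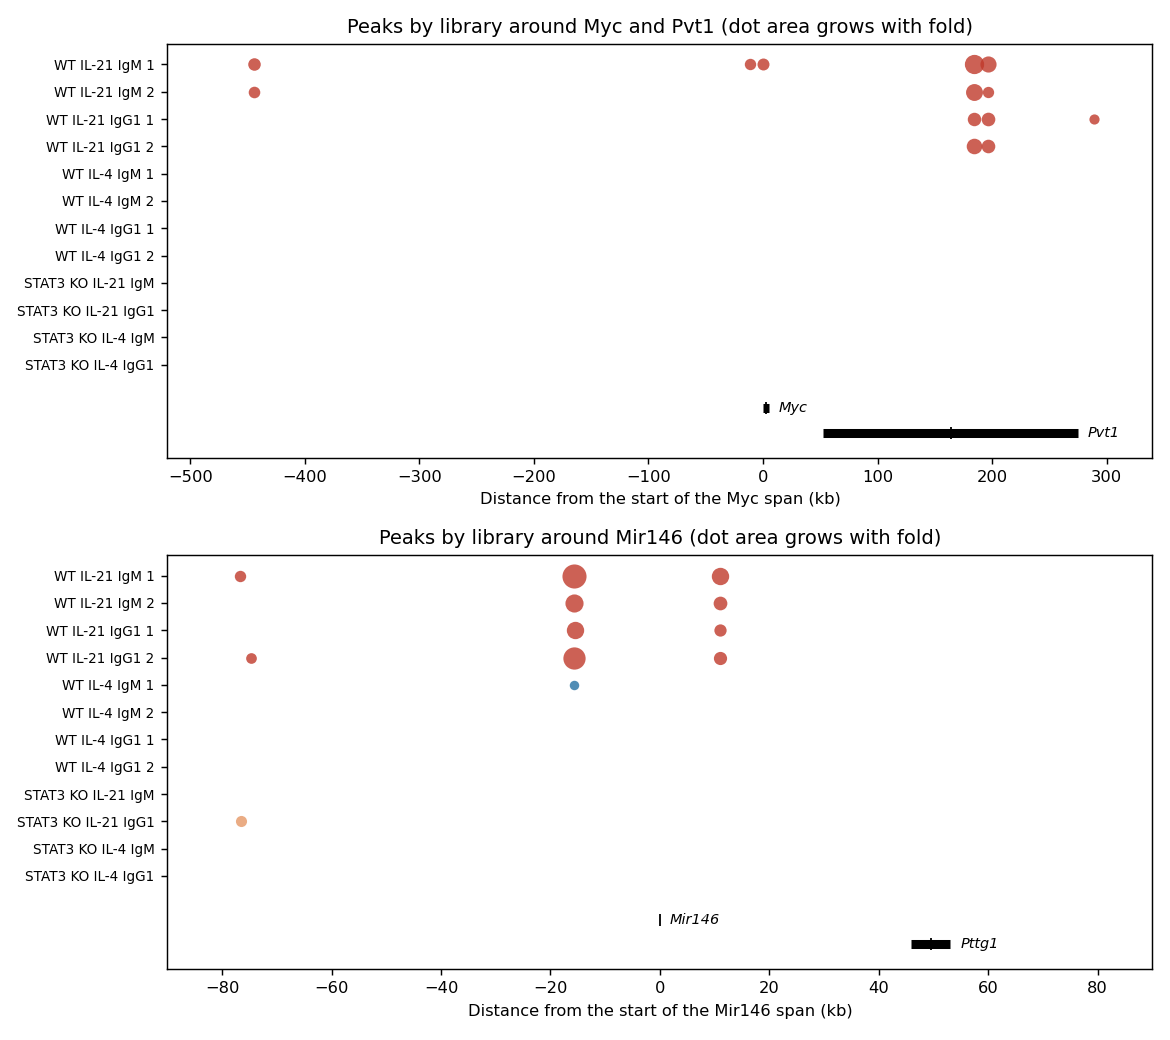
Peaks of each library around Myc and Pvt1 (upper panel) and around Mir146 (lower panel), placed by the distance in kb of the peak's summit from the start of the Myc or Mir146 span, with dot area growing with fold and black bars for gene spans. Both Pvt1 sites have dots in the 4 WT IL-21 libraries alone, and the higher Mir146 site has in addition 1 small dot in a WT IL-4 library.

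The other 3 gained regions were spread over 3 chromosomes. The site chr2:173451843-173452600, 70357 bp from 1700021F07Rik and with no noncoding gene of the table within 50 kb, had folds of 11.8, 5.98, 5.92 and 9.95 (IgM, IgM, IgG1, IgG1; mean 8.42 ± 2.95, SD, n = 4). The second Klf13 site, chr7:64001554-64002153, 63026 bp from Klf13, a zinc finger transcription factor gene, had folds of 7.93, 4.05, 4.99 and 7.93 (mean 6.23 ± 2.00, SD, n = 4). It lay in the span of the lncRNA gene Gm32633 and overlapped the promoter window printed above. The site chr13:51936174-51936802, 87982 bp from Gadd45g, a stress-induced growth arrest gene, had folds of 7.51, 6.60, 5.95 and 4.14 (mean 6.05 ± 1.42, SD, n = 4).

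There were 6 remote regions with a peak in every WT IL-21 library and in none of the KO libraries (1.68% of all regions with a WT peak). The one added to the 5 was the Mir146 site, chr11:43358302-43359706. It lay 15627 bp from Mir146, the gene of miR-146a, a microRNA known to damp NF-κB signalling through the adaptors Traf6 and Irak1, and 61474 bp from Pttg1, the securin gene. Its fold was 28.4 and 15.5 in the IgM and 14.1 and 24.0 in the IgG1 libraries with IL-21 (mean 20.5 ± 6.85, SD, n = 4). By fold it ranked 12, 18, 10 and 6 in those lists. A single WT IL-4 library, the first of IgM cells, also had a peak there, with a fold of 3.26 and rank 1406 of 1455, so that the region did not count as gained. On the other side of Mir146 a region 34901 bp from Pttg1, and thus not remote, was found in the same 4 libraries with folds of 14.1, 8.30, 6.35 and 7.58 and in none of the other 8.

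A further 10 remote sites were found in exactly 3 WT IL-21 libraries and nowhere else. The first IgG1 library was the one missing at 6 of them, the second IgM library at 3 and the second IgG1 library at 1. The highest fold was that of chr12:117447231-117447716, 69102 bp from Rapgef5, an exchange factor gene for Ras-family GTPases, with 19.8 and 10.5 in IgM cells and 6.95 in the second IgG1 library. The site chr12:25438515-25439336, in the lncRNA gene Gm36723 and 342683 bp from Id2, an inhibitor of E-protein transcription factors, had 17.0 in the first IgM library and 5.08 and 10.4 in IgG1 cells. The site chr1:64305406-64306137, 183492 bp from the transcription factor gene Klf7 and 7300 bp from the lncRNA gene Gm35803, had 13.1 in the first IgM library and 8.90 and 6.64 in IgG1 cells. At these 3 sites the first IgM library had the highest fold.

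Among the others of the 10, Btg1, an antiproliferative gene, was 245827 bp from chr10:96370720-96371541, with folds of 10.7 and 6.93 in IgM cells and 7.93 in the second IgG1 library. A second site, chr10:96374177-96374800, lay 242366 bp from Btg1 and was found in the 2 IgM libraries, with 10.2 and 6.36. Cdk6, a cell cycle kinase gene, was 188565 bp from chr5:3152213-3152697, with 6.005 in the first IgM library and 7.63 and 8.22 in IgG1 cells. At the Cdk6 site the IgG1 libraries had the higher folds. Egln3, a prolyl hydroxylase gene of oxygen sensing, was 109764 bp from chr12:54313348-54313749, with 9.45, 5.55 and, in the second IgG1 library, 5.38.

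The first Klf13 site, chr7:63999470-63999989, lay 60854 bp from Klf13 and within Gm32633, like the gained one, and had 9.01, 3.93 and, in the second IgG1 library, 8.22. The site chr1:136685012-136685810, in the lncRNA gene Gm19705 and 55001 bp from Zfp281, a zinc finger gene, had 7.84, 3.89 and, in the second IgG1 library, 5.76. The Klf13 site thus adjoined another IL-21-only site within the same lncRNA span. The site chr6:134342710-134343245, in 4933406J09Rik and 53526 bp from Bcl2l14, a Bcl2-family gene, had 5.81, 3.92 and, in the second IgG1 library, 5.55. The site chr5:118359736-118360810, in Gm46942 and 96939 bp from Spring1, had 4.81 and 4.17 in IgM cells and 3.97 in the first IgG1 library. Merged by summits, or at -log10 q of at least 5, the Spring1 site had a peak in 1 WT IL-21 library. In lists of equal length it had no peak. It was the only one of the 10 without a peak in the second IgG1 library.

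Among the 21 sites of 2 libraries, the 8 with the highest mean fold included the Btg1 and Myc sites given above. Marcks, a protein kinase C substrate gene, was nearest to chr10:37811698-37812590 at 673251 bp, the greatest distance of the 36, with 7.06 and 6.09 in IgM cells. Gvin1, an interferon-inducible GTPase gene, was 64666 bp from chr7:106279665-106280142, with 7.77 and 5.26 in IgM cells. Med13l, a Mediator subunit gene, was 82364 bp from chr5:118477915-118478687, with 6.71 and 4.98 in IgM cells. These sites had peaks in the 2 IgM libraries and in neither IgG1 library. The remaining 3 were found in the first IgM and the second IgG1 library. Klf6, a transcription factor gene, was 56879 bp from chr13:5804453-5804767 with 8.12 and 4.74. Hlx, a homeobox gene, was 150296 bp from chr1:184576477-184577021 with 6.71 and 5.37. Gadd45g was 251804 bp from chr13:52100186-52100922, which lay within 4921525O09Rik, with 5.53 and 6.15.

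**Figure D5:**
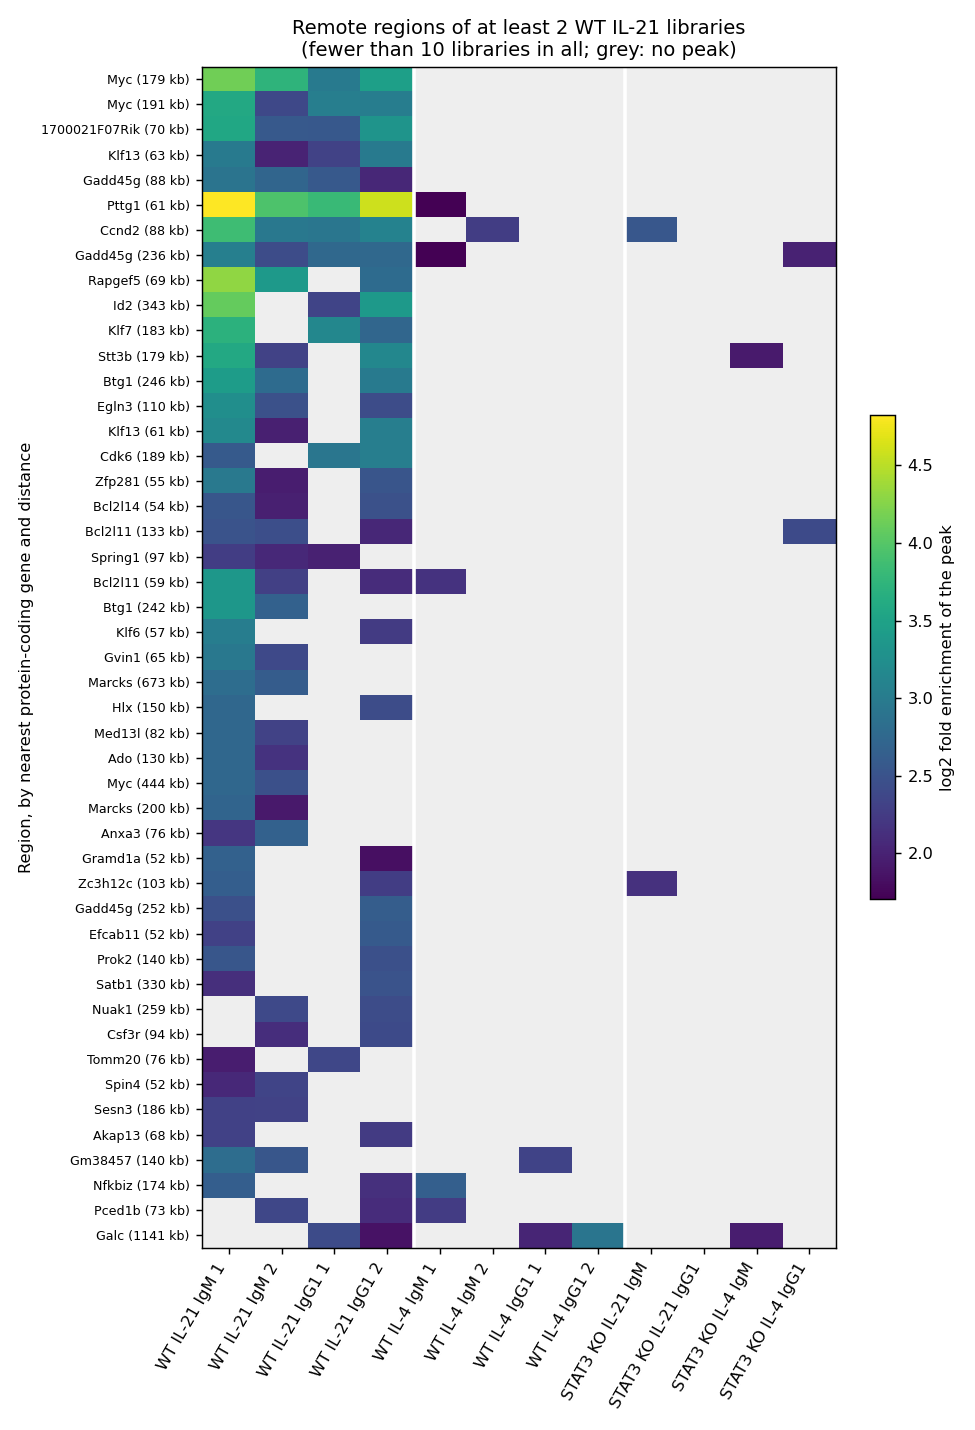
Log2 fold enrichment of the peak in each of the 12 libraries (columns) at the 47 remote regions of at least 2 WT IL-21 libraries and fewer than 10 in all (each line of the plot is 1 region, named by its nearest protein-coding gene and distance); grey means no peak. Colour is most frequent in the first IgM column with IL-21, and it appears in the WT IL-4 or KO columns at 11 regions.

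Of the 82 remote regions in 2 or more libraries, 26 were neither IL-21-only nor in 10 to 12 libraries. Of these 26, 11 had at least 2 WT IL-21 peaks, and 8 of the 11 also had a WT IL-4 peak and 6 a KO peak. The following 4 were named after their values were seen, except the Morrbid site, which the rule on listed noncoding genes chose. Ccnd2, the cyclin D2 gene, was 87803 bp from chr6:127239528-127240602, with 14.5, 7.75, 7.63 and 8.53 in the WT IL-21 libraries, 4.82 in the second IgM library with IL-4 and 5.87 in the IL-21 IgM library of KO cells. A Gadd45g site, chr13:52083732-52084301, lay 427 bp from Gm40948, whose promoter is printed above, and had 8.29, 5.36, 6.77 and 6.74 with IL-21, 3.27 in the first IgM library with IL-4 and 3.99 in the IL-4 IgG1 library of KO cells. The fold was highest in WT IL-21 libraries at both. Near Bcl2l11, which encodes the apoptosis inducer Bim, the site chr2:128294908-128295665 lay 3477 bp from Morrbid, a lncRNA known in mouse myeloid cells to restrain Bcl2l11, and 132639 bp from Bcl2l11. It had 5.66, 5.48 and, in the second IgG1 library, 4.15, and a KO peak of 5.30 with IL-4 in IgG1 cells. Stt3b, an oligosaccharyltransferase subunit gene, was nearest to chr9:115489131-115489789, in Gm39447, with 12.01, 4.98 and 8.85 in WT IL-21 libraries and 3.80 in the IL-4 IgM library of KO cells. At these 4 sites a KO library shared the region. Its fold lay below that of each WT IL-21 peak at the Ccnd2, Gadd45g and Stt3b sites, and among the WT IL-21 values at the Morrbid site. A fold is relative to its own list, so ranks by fold within lists are given too. At the Ccnd2 site the KO peak ranked 59 of 1073, against 81, 103, 58 and 111 in the WT IL-21 lists. At the Gadd45g site it ranked 1238 of 1892, against 284, 282, 83 and 226. The Stt3b KO peak ranked 637 of 763, against 117, 369 and 100. That at the Morrbid site ranked 261 of 1892, against 789, 274 and 1120.

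The 62 remote regions found in 2 to 9 libraries had 50 nearest protein-coding genes, and 8 of these genes were nearest to more than 1 of them, 20 regions in all. Alkbh8, a tRNA methyltransferase gene, had 4, all in the stretch at the start of chromosome 9 described below, and Gadd45g and Myc had 3 each. Bcl2l11, Btg1, Klf13, Marcks and Med13l had 2 each. Genes of the lists chosen for B cells were read as addresses only. None of the 27 JAK-STAT genes was nearest to any remote region. Of the 36 genes of B and plasma cell fate, 11 were, among them Bcl6, Prdm1, Irf8, Ebf1 and Cxcr4, but only Id2 for a region of 2 or more libraries. Of the 23 genes of survival and growth, 3 were (Bcl2l11, Myc and Ccnd2), all for such regions and Myc for IL-21-only ones. Over all 21887 protein-coding genes, 5.99% were nearest to a remote region, 0.251% to one found in 2 or more libraries and 0.137% to an IL-21-only one.

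Long noncoding RNA genes lay close to the IL-21-only sites. Of the 36, 16 (44.4%) lay within a lncRNA span, against 299 of the 2137 single-library regions (14.0%), 5 of the 26 other recurring ones and 1 of the 20 found in 10 to 12 libraries. A lncRNA gene lay within 50 kb of 29 of the 36 (80.6%), against 43.0% of the single-library regions. It did so at 57.7% of the 26 other recurring regions and 20.0% of the 20 found in 10 to 12 libraries. No noncoding gene lay within 50 kb of 7 of the 36 (19.4%), against 52.6% of the single-library regions. That share was 15.4% for the 26 and 20.0% for the 20, so it was not particular to the IL-21-only sites. These are descriptions with no test over regions. The IL-21-only sites also lay nearer to coding genes than the single-library regions, at a median of 103352 against 167446 bp, and were wider, at a median of 572.5 against 253 bp. At 50 to 100 kb from a coding gene 8 of 18 IL-21-only sites and 17.4% of 609 single-library regions lay in a lncRNA span, and over 100 kb away 8 of 18 and 12.6% of 1528. Of all 11227 regions, 9.60% did. The part of width was not tested. By library, 15.4% to 24.0% of remote peaks lay in a lncRNA span in WT IL-21 lists, 7.75% to 15.3% in WT IL-4 lists and 9.92% to 14.2% in KO lists. A microRNA gene lay within 50 kb of 45 remote regions (2.03%), including 12 of the 20 in 10 to 12 libraries and 0 of the 36. Those 12 all lay beside the same gene, Mir101c, in the single stretch of chromosome 9 described below. The share over all regions was not computed. Immunoglobulin or T cell receptor segment genes lay within 50 kb of 19 remote regions, each found in a single library.

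Of 40 noncoding genes listed for B cells and growth, 38 were in the gene table and 8 had a remote region within 50 kb. Morrbid had 4, Pvt1 3 and Dleu2, the host of the miR-15a and miR-16-1 cluster, 2. Mir146, Mir29a, Mir29b-1, Xist and Ftx had 1 each. Only Pvt1, Mir146 and Morrbid had one found in 2 or more libraries. The values of those regions are given above.

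The 20 remote regions found in 10 to 12 libraries differed in kind from the rest. Their fold was 1.22 to 5.96 (median 1.79), while their best -log10 p was at least 37.0 with a median of 912, against a median of 14.0 for the other recurring remote regions and 7.12 for single-library ones. The 12 on chromosome 9 lay within chr9:3000918-3038262, in a stretch with 24 remote regions in all, 498 to 37231 bp from Mir101c and nearest to Alkbh8. At chr9:3031670-3032953 the fold was 1.54 to 1.64 in the WT IL-21 libraries, 1.52 to 5.48 in WT with IL-4 and 1.71 to 3.53 in KO. The value of 5.48 was from the second IgG1 library with IL-4. That library had the highest fold of the 12 at 15 of the 17 regions found in all of them.

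Another 4 regions of chromosome 9, chr9:3000918-3001526, chr9:3006389-3007668, chr9:3019866-3021136 and chr9:3023465-3025114, were among the 8 with the most libraries and the highest -log10 p. So were chr14:19416949-19418295 and chr14:19418555-19418936, nearest to Gm2244, and chr2:98666585-98667302, 1035461 bp from Lrrc4c. The chromosome 2 region had the highest -log10 p of all, 163582, with folds of only 1.66 to 2.88. Regions of other chromosomes in this set included chr17:39843021-39848761, which held 29 peaks and had its summit 510 bp from the lncRNA gene AY036118, and chr3:5860406-5860724, nearest to Pex2. All 4 KO libraries and all WT libraries had peaks at the 17. The sources used here do not say whether regions were excluded before deposit.

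The farthest remote region in 2 or more libraries, chr12:97061443-97061785, lay 1140723 bp from Galc. Its fold was 4.09 and 7.56 in IgG1 cells with IL-4, 5.35 and 3.61 in IgG1 cells with IL-21 and 3.88 in the IL-4 IgM library of KO cells. It had no peak in WT IgM cells. Next were the chromosome 2 region of all 12 libraries and its neighbour chr2:98662237-98662709, 1030655 bp from Lrrc4c. That neighbour had peaks in IL-4 libraries alone, with folds of 2.35 and 4.01 in WT (first IgM, second IgG1) and 2.15 and 2.67 in KO (IgM, IgG1). Among regions of 1 library, the highest folds were 13.3 at chrX:128363560-128363781 (first IgG1 library with IL-21, 627060 bp from Cldn34c4), 12.9 at chr10:92387992-92388421 (296690 bp from Nedd1) and 12.1 at chr3:19866593-19867078 (90238 bp from Cp). The last 2 were from the second IgG1 library with IL-4. A high fold was thus also found at sites that no other library held.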

How the data were processed

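CUT&RUN peaks of 12 antibody libraries were analysed, and the input sample was not used. The submitters' processing notes list mm10 as the build and, without roles, MACS2 2.2.7.1, Bowtie2 2.4.1, Trimmomatic 0.39 and deepTools 3.5.1. Read filters, the peak calling control and any use of the yeast spike-in are not given in the labels or headers. Each library has its own deposited list. It gives each peak's position, the authors' fold (a ratio to the local background), a deposited -log10 p and -log10 q, and a deposited score. The lowest -log10 p was 5.00, so weaker sites are not listed and the absence of a peak does not mean the absence of binding. Depth is unknown.

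Of 13908 peaks, 395 on the mitochondrial genome or unplaced sequences were not used and 13513 were merged at an overlap of at least 1 bp. The summit of the peak with the highest -log10 p gave the region's distance to the nearest protein-coding gene span (RefSeq, GRCm38.p6, 21887 genes) and to 16925 noncoding genes. The gene table has no exons, so exonic or intronic position is not given. Positions are 1-based on mm10.

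Shares and log2 numbers of remote peaks were tested over libraries by exact permutation within strata, with Benjamini-Hochberg adjustment over 3 contrasts. Differences within lists were tested by exact sign-flip tests, and regions by Fisher's exact test adjusted over 7461 WT regions. The calls of gained regions and the permutation tests were checked on simulated data. Regions found in the same library are not replicates of a condition. Regions named with values were those gained in both isotypes, the other IL-21-only regions of 3 libraries, the 8 next by mean fold, the 8 found in most libraries, the 3 of highest fold in 1 library, the 3 farthest and those near a listed noncoding gene. Exceptions are marked. Members, lists and rules were chosen with earlier results of these data known. Alternatives were the distance, stricter fold and q thresholds, merging by summits, equal list length, leaving out regions with KO peaks, a replicate block and leaving out each library. Python 3.11.15, numpy 2.4.6, pandas 2.3.3, scipy 1.17.1 and matplotlib 3.10.9 were used.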

Additional observations from a re-analysis of the deposited data

Results flagged for a closer look

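The second IgG1 library of WT cells with IL-4 stood apart in its remote share of 32.7%, while the other 3 WT IL-4 libraries lay between 20.3% and 21.8%. The gap to the nearest was 0.877 of the range of the 4. Of 18 sets of 4 libraries examined this was the only one past the limit, and chance passes about 1 in 20. Without the regions of all 12 libraries its share was 30.6%. Its list was the shortest, with 623 peaks, and its part in the difference between cytokines is given by the value without it, -6.47 percentage points (exact permutation p = 0.0556).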

How the results depend on the processing

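No test over libraries changed its side of 0.05 under any alternative run, but most could not. The contrasts of IL-21 with IL-4 and of IgM with IgG1 cannot pass 0.05 in this design. Nor can the tests of fold in the WT IL-21 lists and of overlap. The difference in remote share between IL-21 and IL-4 stayed between -15.2 and -8.09 percentage points, or -11.9 to -6.47 with 1 library left out. With the limit at 100 kb the gained regions numbered 2 in both isotypes, 13 in IgM and 6 in IgG1 cells, and the IL-21-only regions 18. Counts under the alternatives are of remote regions, and the shares over all regions were not computed for them. Keeping peaks of -log10 q of at least 5 turned the log2 difference in remote peak number to 0.76 between IL-21 and IL-4 (exact permutation p = 0.111) and to 0.25 between WT and KO (p = 0.358, exact permutation). Lists of equal length gave -0.84 between IL-21 and IL-4 (exact permutation p = 0.0556) and turned the difference between IgM and IgG1 to -0.27 (exact permutation p = 0.278). Merging by summits gave 2 lost regions in IgM cells, 1 in IgG1 cells and 1 IL-4-only region, and a fold of at least 3 gave 0 lost in IgM cells. Of 38 regions named by rule, the libraries with a peak (WT IL-21 minus WT IL-4) moved at 10 in lists of equal length. They moved at 9 at that q, 5 at that fold and 3 by summits. Regions with no peak left were in none of these counts, among them the Spring1 site in lists of equal length. With such regions left out, the number was unchanged at 27 in lists of equal length and at 29 at that fold. The gained Klf13 site kept 2 WT IL-21 libraries at that q. In lists of equal length the gained Klf13 and Gadd45g sites kept 3 and the Bcl2l14 site 1. The excess overlap of remote peaks, 2.69 points, rose to 24.97 at -log10 q of at least 5 and to 8.86 in lists of equal length. It turned to -6.66 points without regions that had KO peaks and to -6.13 without those of all 12 libraries, the latter chosen after seeing the data. The cause was not tested. With 1 library left out in turn, the values ran from -0.19 to 0.14 for the remote peak number (log2) of IL-21 against IL-4, from -0.40 to 0.40 for WT against KO, from -3.52 to 0.598 points for the share of WT against KO, and from -0.042 to 5.02 points for the overlap. Counts ran from 5 to 13 (gained in both isotypes), 27 to 238 (gained in IgM), 12 to 182 (gained in IgG1), 0 to 1 (lost in both), 1 to 268 (lost in IgM), 0 to 180 (lost in IgG1), 17 to 40 (IL-21 only) and 0 to 1 (IL-4 only). A gained or lost call needs fewer libraries to agree when 1 is left out. The IL-21-only rule still needs 2 WT IL-21 libraries, but absence from fewer others when a WT IL-4 or KO library is left out. Its highest count, 40, was that without the first WT IgM library with IL-4.

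Nothing in the labels says that replicate numbers pair the libraries. Deviations of same-numbered libraries correlated from -0.0436 to 0.110 over 6 pairs of groups, 1 of them over 0.1. Such values cannot show whether libraries shared mice or a batch. With a replicate block the difference in remote share was -9.20 points (exact permutation p = 0.125), and no call changed. Libraries without a deposited depth limit what the absence of a peak can show, and a group of 1 KO library has no replicate.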
